A study of Mus musculus with 8 samples.

Results

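Doxycycline-treated clone 4 cells, which carry a human Pax5 transgene, were compared with doxycycline-treated Pax5sz2 cells, which do not. Both RNAs had been hybridised against the same kind of reference, untreated clone 4, so the contrast is indirect: for each probe the log2 ratio in Pax5sz2 was subtracted from the log2 ratio at 300 ng/ml doxycycline, separately in each dye orientation. It uses 4 of the 8 arrays of the series, 2 for each RNA. All cells were Pax5-/- pro/preB cells from mouse bone marrow, grown with IL-7 on gamma-irradiated OP9 stromal cells, a feeder line. Clone 4 was transduced with rtTA, the doxycycline-dependent transactivator, and with huPax5 under a tetracycline-responsive element, and here received 300 ng/ml doxycycline. Pax5sz2 carried rtTA only and is labelled as treated with doxycycline, with no dose given. The common reference was clone 4 with huPax5 at 0 ng/ml doxycycline. Clone 4 and Pax5sz2 are different lines, so the transgene, the line and any difference in dose cannot be told apart in this contrast. Each RNA is 1 sample on 2 arrays with the dyes swapped, and no replicate cultures are labelled. The spread given with each value is therefore technical, and no test between the lines is possible.

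Pax5 is a paired-domain transcription factor that holds B cell precursors to the B lineage. It is known to switch on genes of the B cell receptor pathway, such as Blnk and Cd79a, and to switch off genes of other blood lineages, such as Ccr2, Itgb7, Il18r1 and Fcer1g. Pro-B cells without it keep growing in IL-7, express the surrogate light chain and Rag genes, and also carry transcripts of myeloid, NK and T cells.

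The arrays were not equally even. In a corner of the 300 ng/ml array that had the treated RNA in Cy5, holding 14.7% of the non-control spots (6107 of 41534), ratios were low against the swapped array. The median difference between the 300 ng/ml and Pax5sz2 ratios there was -0.93 in this orientation and 0.05 in the other, against 0.08 and 0.01 elsewhere on the slide. Of the features tested, 2471 have their probe in the corner, and 1057 of those were at least 2-fold lower in the Cy5 orientation alone. No block of spots on the 10 ng/ml or Pax5sz2 pair reached the limit of -0.5 that defines the corner. For the 12 named genes whose probe lies there, the value in the other orientation, with the treated RNA in Cy3, is given, since it does not come from the uneven array. The signal of the treated RNA was well above background for 59.5% and 63.7% of spots at 300 ng/ml and for 73.7% and 65.9% in Pax5sz2, and no spot was saturated.

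The labelled cell type was checked against its markers. Of 12 pro-B and pre-B markers, 9 were well above background on both arrays at 300 ng/ml, 12 in Pax5sz2 and 9 in untreated clone 4. Vpreb1 and Igll1 were not above background in either channel of the 300 ng/ml arrays, while Dntt was well above background on every clone 4 array on which its brightest probe was read and misses the count because that probe was left out as an outlier on 1 array. Ncr1 and Prf1, which mark NK cells, and Cd3d and Cd3g, of the T cell receptor complex, were not above background on all arrays of any of these RNAs. Klrb1c, also of NK cells, and Cd3e and Lck, of T cells, were well above background on every array of each RNA. So were Mpo, Csf1r, Itgam and Lyz2 (myeloid), Cpa3 and Mcpt8 (mast cell) and the 3 erythroid markers.

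A feature, meaning a gene or a probe without a gene name, was tested if either treated RNA was well above background on both of its arrays, which held for 18676 features. Differences were kept if they were at least 2-fold in the same direction in both dye orientations, a size rule with no p-value. This kept 307 features higher at 300 ng/ml than in Pax5sz2, which is 1.64% of those tested, and 489 lower, which is 2.62%. Of these 796 (4.26%), 646 have a gene name (247 higher, 399 lower). The shares of 1.64% and 2.62% are the background for the counts of list members given below. The gene lists were chosen with earlier results of these data known, so those counts are descriptive. A gene with several probes is given by its brightest, and another probe is said to differ where it went the opposite way or stayed within 0.5 log2 units of 0. Outside the corner the 2 orientations had a correlation of 0.881 across 16205 features, which are not independent replicates, and held 303 of the higher and 415 of the lower features. With the corner left out on that array, 291 features were higher and 441 lower. With the Cy5 orientation alone the counts were 506 and 1699, and with the Cy3 orientation alone 431 and 657. Centring each array on its median in place of a loess curve moved the median difference of all features to -0.14, against -0.02, and the counts to 147 higher and 804 lower.

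**Figure D1:**
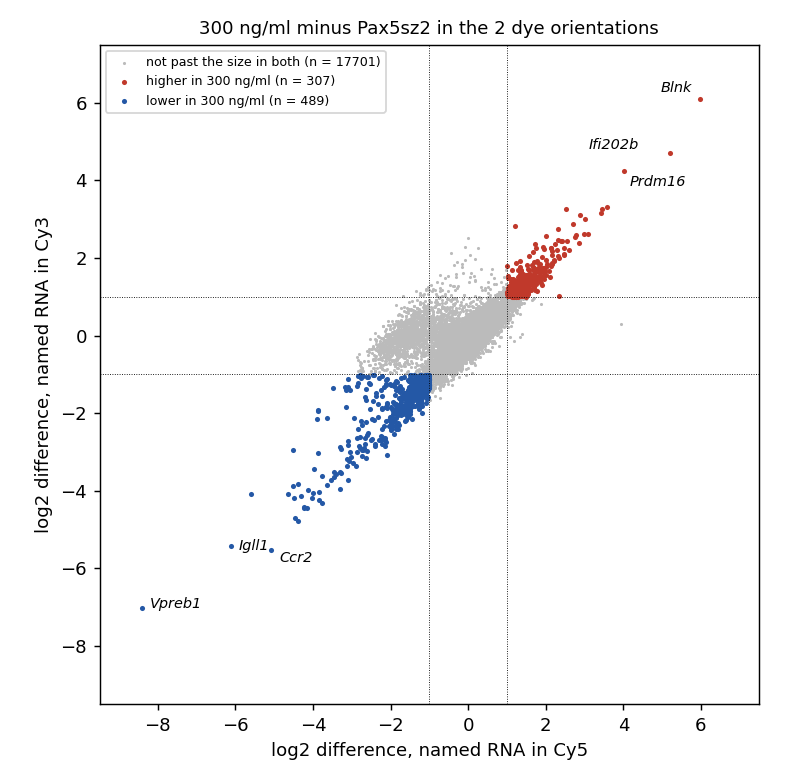
Difference in log2 ratio over untreated clone 4, 300 ng/ml minus Pax5sz2, with the treated RNAs in Cy5 (horizontal axis) and in Cy3 (vertical axis), 1 point per tested feature measured in both. Dotted lines mark 2-fold, red points are the 307 higher and blue points the 489 lower features, and the grey cloud that reaches left of -1 near 0 on the vertical axis includes the 1057 features from the corner of the 300 ng/ml Cy5 array.

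Each difference has 2 components, the ratio at 300 ng/ml and the ratio in Pax5sz2, and either can carry it. Of the 307 higher features, 66 (21.5%) were themselves at least 2-fold higher at 300 ng/ml than in untreated clone 4 while Pax5sz2 was not at least 2-fold lower. For 134 (43.6%) it was the reverse: Pax5sz2 was at least 2-fold lower than untreated clone 4, and 300 ng/ml was not past the size. Both ratios passed in 5, and neither alone in 102. Of the 489 lower features, 116 (23.7%) were carried by the 300 ng/ml ratio, 204 (41.7%) by the Pax5sz2 ratio, 21 by both and 148 by neither alone. Of all features tested, 1.41% were at least 2-fold higher and 2.48% lower at 300 ng/ml than in untreated clone 4, and 2.51% and 2.98% in Pax5sz2. The Pax5sz2 ratio thus carried more of the differences than the 300 ng/ml ratio in both directions.

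**Figure D2:**
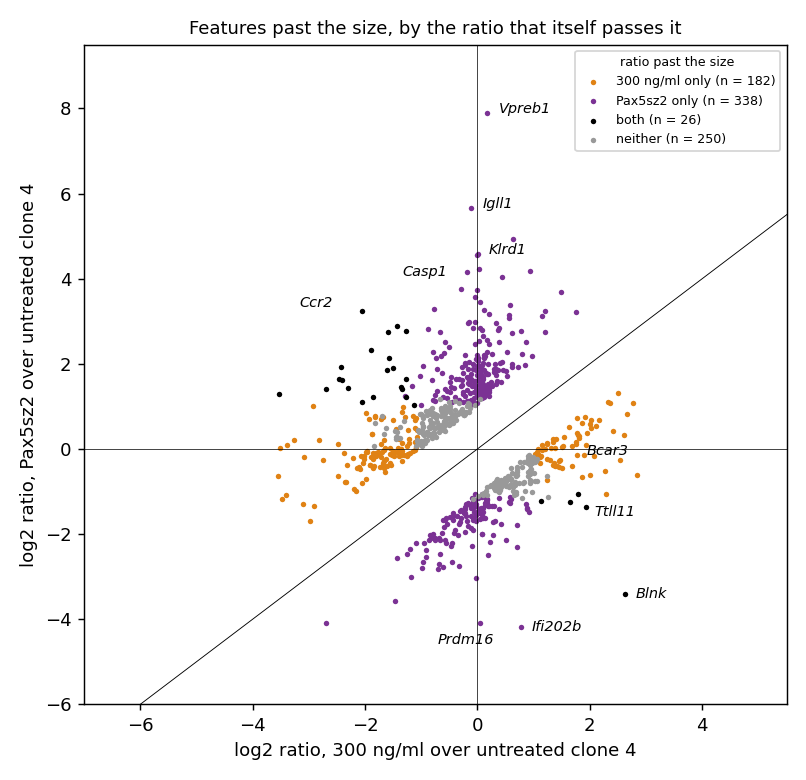
The 796 features past the size, by their mean log2 ratio over untreated clone 4 at 300 ng/ml (horizontal axis) and in Pax5sz2 (vertical axis), n = 2 arrays each. Points on the vertical axis, such as Vpreb1, Igll1 and Klrd1, differ through Pax5sz2, points on the horizontal axis, such as Bcar3, through 300 ng/ml, and Blnk and Ccr2 through both; the diagonal marks no difference.

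The endogenous Pax5 locus was read by 2 mouse probes on chromosome 4, and the human transgene is not what they were designed for, so they do not check the labels. The probe of the coding transcript had log2 ratios of 0.28 and 0.18 at 300 ng/ml and -0.25 and -0.30 in Pax5sz2, a difference of 0.50 ± 0.0415 (SD, n = 2 dye orientations). The probe of a cDNA clone, the brighter of the pair, had 2.39 and 2.32 at 300 ng/ml and 3.15 and 2.89 in Pax5sz2, a difference of -0.67 ± 0.132. The probes thus differed in opposite directions, and neither was past the size.

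Genes known to be activated by Pax5 were more often higher than lower in the transgene-bearing cells at 300 ng/ml. Of 29 members tested, 11 were at least 2-fold higher (among them Blnk, Lef1, Vpreb3, Cplx2, Foxo1, Bcar3, Ebf1, Nedd9, Irf8 and Cd79a) and 1 lower, Rhobtb1. Their median difference was 0.40, against -0.02 over all features, and it was above 0 under every normalization tried. It was 0.28 over 32 genes with no filter on dim probes. With median centring 7 members were higher and 1 lower. The shares over all features tested were 1.64% higher and 2.62% lower. Blnk, the adaptor that links the B cell receptor to its kinases, had the highest difference of all named features. Its log2 ratios were 2.54 and 2.70 at 300 ng/ml and -3.43 and -3.39 in Pax5sz2, so it was higher by 6.03 ± 0.0856 (SD, n = 2 dye orientations), and its sets of arrays lie on opposite sides of untreated clone 4.

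Some genes of the group differed through the induced cells. Bcar3, an adaptor of adhesion signalling, had 1.73 and 1.77 at 300 ng/ml and -0.03 and 0.26 in Pax5sz2. Nedd9, a docking protein of the same family of signals, had 1.25 and 1.14 at 300 ng/ml and -0.05 and 0.04 in Pax5sz2, and its other probe differed. Nedd9 missed the size with median centring and with the median over probes (0.84). Cplx2, a regulator of vesicle fusion, had 2.68 and 2.63 at 300 ng/ml and 0.88 and 0.76 in Pax5sz2. In these 3 genes the Pax5sz2 ratio stayed under 2-fold.

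Other genes of the same group differed because they were low in Pax5sz2. Lef1, a transcription factor of Wnt signalling, had 0.84 and 0.99 at 300 ng/ml and -1.48 and -1.47 in Pax5sz2. Foxo1, a transcription factor needed for pre-B cell development, had 0.07 and 0.00 at 300 ng/ml and -1.83 and -1.49 in Pax5sz2. For Vpreb3 the ratios were 0.42 and 0.73 at 300 ng/ml and -1.36 and -1.21 in Pax5sz2. Ebf1, a factor that acts with Pax5 at many B cell genes, had -0.46 and -0.27 at 300 ng/ml and -1.81 and -1.34 in Pax5sz2, and its other probe differed. Ebf1 missed the size with median centring (0.98), with the median over probes (0.49) and with arrays crossed between orientations. Cd79a, the Ig-alpha signalling chain, differed by 1.06 ± 0.0332 with neither ratio alone past the size: 0.24 and 0.09 at 300 ng/ml, and -0.84 and -0.95 in Pax5sz2. It missed the size with median centring (0.86), on treated channels alone (0.93) and with arrays crossed between orientations. In all 5 the ratio at 300 ng/ml was within 2-fold of untreated clone 4. Rhobtb1, the only lower member, differed by -1.42 ± 0.446, and its other probe did not share this.

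**Figure D3:**
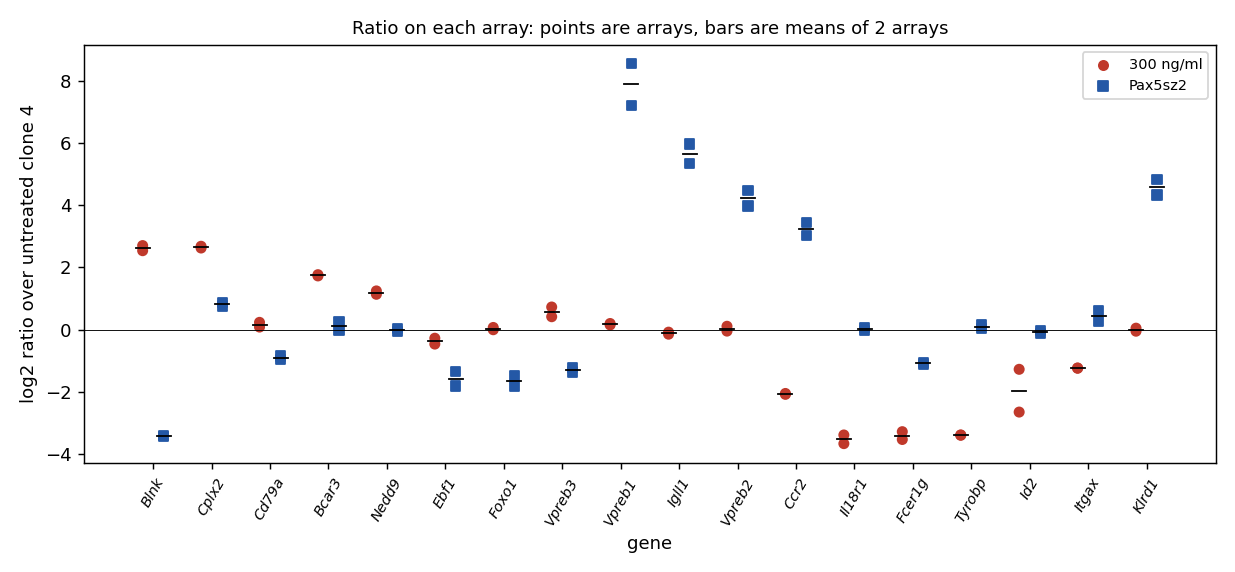
Log2 ratio over untreated clone 4 on each array for 18 genes, 300 ng/ml in red left of Pax5sz2 in blue; each point is an array and each bar the mean of 2 arrays. Blnk and Ccr2 lie on opposite sides of 0 in the 2 RNAs, Bcar3, Il18r1 and Tyrobp are away from 0 at 300 ng/ml, and Foxo1, Vpreb1, Igll1 and Klrd1 in Pax5sz2.

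Among the genes of B cell precursors the surrogate light chain stood at the other end. Vpreb1, Vpreb2 and Igll1 encode the subunits that pair with the immunoglobulin heavy chain in the pre-B cell receptor, and all 3 lie on chromosome 16. Vpreb1 had log2 ratios of 0.15 and 0.20 at 300 ng/ml and 8.55 and 7.22 in Pax5sz2, a difference of -7.71 ± 0.975. It was not well above background on either 300 ng/ml array, and in the treated channels it was at least 3660-fold lower there than in Pax5sz2. Igll1 had -0.14 and -0.08 at 300 ng/ml and 5.97 and 5.34 in Pax5sz2, a difference of -5.76 ± 0.486, and was at least 339-fold lower in the treated channels. These values are from its brightest probe. The other Igll1 probe was much dimmer in Pax5sz2, with ratios of 0.74 and 1.23 there. It differed by -0.80 with the treated RNA in Cy5, under the size, and by -1.03 in Cy3. Vpreb2 had -0.04 and 0.11 at 300 ng/ml and 4.47 and 3.98 in Pax5sz2, a difference of -4.19 ± 0.46. On the 300 ng/ml arrays clone 4 thus showed little or no signal for these genes with or without doxycycline. Pax5sz2 gave a strong one at the brightest probe of each. Such bounds come from the treated channels, not from the ratios. They set the normalized intensity of the bright RNA against, on each dim array, the dim probe's own signal or the lowest signal of any probe well above background, whichever is higher.

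The promoters of the 3 surrogate light chain genes, which differed together, are shown with those of Blnk and Cd79a, genes of the same receptor pathway with differences above 0. Each runs from 250 bases before to 50 after the transcript start in RefSeq (GRCm38.p6), 5′ to 3′ on the gene's strand: Vpreb1 at chr16:16869206-16869505 (minus strand), Igll1 at chr16:16863936-16864235 (minus strand), Vpreb2 at chr16:17980315-17980614 (plus strand), Blnk at chr19:40994172-40994471 (minus strand) and Cd79a at chr7:24897247-24897546 (plus strand). Capitals mark matches on either strand to the letters CAGGTG, an E-box of the kind E2A binds, or CCCNNGGG, the core recognised by Ebf1, and no match of either overlaps another.
Vpreb1: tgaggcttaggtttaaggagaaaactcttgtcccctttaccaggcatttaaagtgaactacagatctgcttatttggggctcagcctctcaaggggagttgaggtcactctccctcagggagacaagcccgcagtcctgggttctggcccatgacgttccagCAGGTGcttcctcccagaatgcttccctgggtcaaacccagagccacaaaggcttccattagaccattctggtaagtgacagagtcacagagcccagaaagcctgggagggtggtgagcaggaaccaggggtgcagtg
Igll1: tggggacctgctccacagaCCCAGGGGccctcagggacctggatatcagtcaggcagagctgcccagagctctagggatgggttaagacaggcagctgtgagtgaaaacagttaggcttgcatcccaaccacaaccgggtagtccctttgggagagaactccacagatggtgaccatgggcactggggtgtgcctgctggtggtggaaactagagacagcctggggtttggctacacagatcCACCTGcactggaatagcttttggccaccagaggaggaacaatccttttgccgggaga
Vpreb2: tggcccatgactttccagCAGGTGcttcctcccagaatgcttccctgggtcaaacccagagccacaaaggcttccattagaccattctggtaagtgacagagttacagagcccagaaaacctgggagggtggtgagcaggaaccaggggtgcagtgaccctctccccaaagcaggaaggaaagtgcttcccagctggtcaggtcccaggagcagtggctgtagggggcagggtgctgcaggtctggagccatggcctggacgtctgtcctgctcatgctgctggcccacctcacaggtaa
Blnk: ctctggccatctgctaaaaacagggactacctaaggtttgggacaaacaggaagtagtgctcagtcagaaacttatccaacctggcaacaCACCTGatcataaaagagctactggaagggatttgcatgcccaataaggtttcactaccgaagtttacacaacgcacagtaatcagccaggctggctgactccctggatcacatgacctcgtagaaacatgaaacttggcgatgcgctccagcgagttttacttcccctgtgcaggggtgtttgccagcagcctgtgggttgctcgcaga
Cd79a: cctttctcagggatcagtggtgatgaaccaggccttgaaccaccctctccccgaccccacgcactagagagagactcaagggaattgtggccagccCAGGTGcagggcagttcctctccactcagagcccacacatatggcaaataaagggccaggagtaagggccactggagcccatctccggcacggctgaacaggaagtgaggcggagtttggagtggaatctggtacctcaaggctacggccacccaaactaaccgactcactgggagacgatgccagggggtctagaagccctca

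All 5 promoters hold 1 E-box, and that of Igll1 also holds 1 Ebf1 core. Of 32851 mouse promoters of the same length, 20.2% hold the E-box and 13.7% the Ebf1 core. The Vpreb1 and Vpreb2 promoters share a run of 91 bases, and 153 of the 156 bases aligned at that offset are identical. This stretch ends the Vpreb1 window and begins that of Vpreb2, so it lies at unlike distances from the listed starts. The 50 bases after the listed Vpreb2 start begin with ATG, the letters of a start codon. The E-box places in the Vpreb1 and Vpreb2 windows are therefore not directly comparable. The 2 genes are near-identical copies, so their probes may each read both transcripts.

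The 2 channels of each array were also compared singly, since a ratio over untreated clone 4 assumes that this RNA gave the same signal on both pairs. Of the tested features, 170 (0.91%) differed at least 2-fold in both orientations between the untreated channels of the 300 ng/ml and the Pax5sz2 pairs. Among the 796 features past the size 38 did so. The treated channels alone passed the size for 2.35% of all features as higher and 2.76% as lower. They did so for 615 of the 796 and had the same direction in both orientations for 767. Vpreb1 was a marked case. Its treated channels read 6.23 and 6.29 log2 intensity units at 300 ng/ml and 18.11 and 18.08 in Pax5sz2. Its untreated clone 4 channels read 6.08 and 6.09 on the 300 ng/ml arrays and 9.56 and 10.86 on the Pax5sz2 arrays. The untreated channel therefore read at background beside 300 ng/ml RNA and well above it beside the very bright Pax5sz2 RNA. For Igll1 it read 6.24 and 6.25 on the 300 ng/ml arrays and 8.94 on both Pax5sz2 arrays, and for Vpreb2 6.64 and 6.65 against 9.05 and 9.49. The cause was not tested. The difference in treated channels was -11.84 for Vpreb1, -8.46 for Igll1 and -6.82 for Vpreb2, larger than their differences in ratio.

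**Figure D4:**
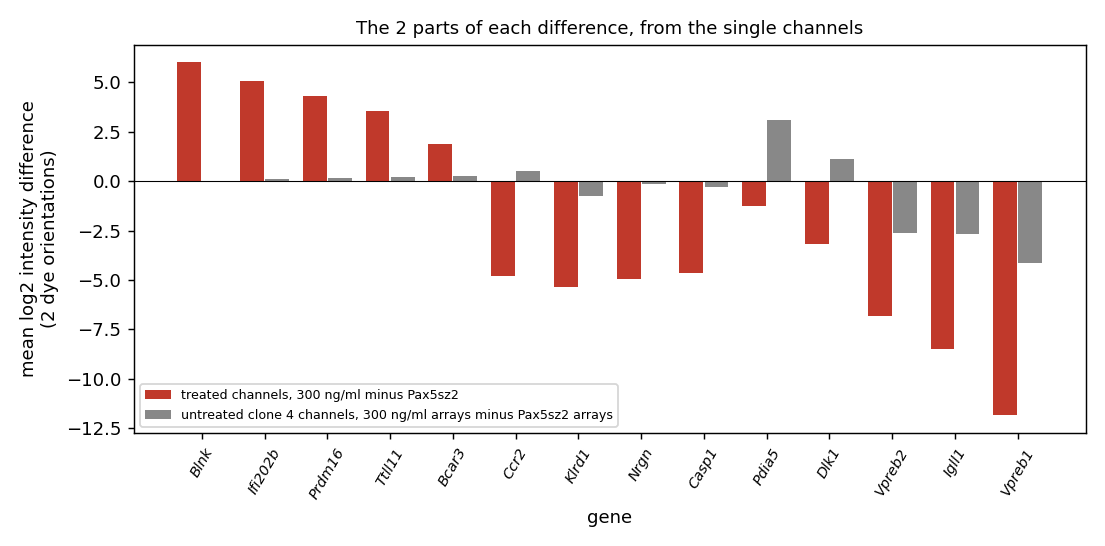
Mean log2 intensity difference over 2 dye orientations for 14 genes, split into the treated channels (red, 300 ng/ml minus Pax5sz2) and the untreated clone 4 channels (grey, 300 ng/ml arrays minus Pax5sz2 arrays). Blnk differed almost wholly in the treated channels, the surrogate light chain genes in both, and Pdia5 mostly in the untreated channels.

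Pdia5, a protein disulfide isomerase, was the opposite case. Its ratio differed by -4.36 ± 0.406, but its treated channels differed by -1.27 and its untreated channels by 3.08. Its probe lies in the corner, where the Cy3 orientation gave -4.07. Dlk1, a transmembrane ligand of the Notch family that is imprinted, differed by -4.33 ± 0.131, of which the treated channels gave -3.20 and the untreated channels 1.13.

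The remaining precursor genes were mixed. Of all 18 pro-B and pre-B genes tested 2 were higher and 5 lower, with Vpreb1, Igll1 and Vpreb2 among the lower. The median difference of this whole list was -0.13. It turned to 0.02 on treated channels alone and to 0.04 with the corner left out. Sox4, a transcription factor of precursors, was higher by 1.63 ± 0.0979 through low ratios in Pax5sz2 of -1.41 and -1.26. Il7r, the receptor of the cytokine in the medium, had -2.99 and -0.65 at 300 ng/ml and 0.50 and 0.71 in Pax5sz2. Its probe lies in the corner, the Cy3 orientation gave -1.36, and 1 of its 2 other probes differed. Lax1, a membrane adaptor that dampens receptor signals, differed by -1.28 ± 0.192. Dntt, the polymerase that adds bases at V(D)J junctions, could be read in only 1 orientation at its brightest probe, in the corner, with -2.48 at 300 ng/ml and -5.11 in Pax5sz2. Another Dntt probe read -2.32 and -2.53 at 300 ng/ml and -3.88 and -4.30 in Pax5sz2, a difference of 1.66 ± 0.15. Dntt was thus below untreated clone 4 in both treated RNAs, and further below it in Pax5sz2. Rag1, the recombinase subunit, differed by -0.38 ± 0.0293, under the size.

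Of 18 pre-B cell receptor signalling genes 3 were past the size, Blnk and Cd79a among them, all higher, and the median of the list was -0.20. Of 19 mature B cell and MHC class II genes, Ltb, which encodes lymphotoxin beta, was higher by 1.32 ± 0.218 and none was lower. That is 1 gene, where 1.64% of all features tested were higher. Ltb missed the size with median centring.

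At 300 ng/ml, genes known to be repressed by Pax5 were lower in 6 of 21 members tested and higher in 1. Of all features tested 2.62% were lower and 1.64% higher. The median difference of the list was -0.50, and it was below 0 under every normalization tried. With no filter on dim probes it was -0.19 over 26 genes. Ccr2, a chemokine receptor of monocytes, had -2.05 and -2.08 at 300 ng/ml and 3.02 and 3.45 in Pax5sz2, a difference of -5.30 ± 0.325. It was thus below untreated clone 4 at 300 ng/ml and above it in Pax5sz2. Il18r1, a receptor chain for interleukin 18, had -3.38 and -3.66 at 300 ng/ml and 0.06 and -0.02 in Pax5sz2, so that the whole difference lay on the induced side. Itgb7, an integrin chain of gut homing, had -3.74 and -3.37 at 300 ng/ml and -0.64 and -0.65 in Pax5sz2. Fcer1g, the signalling chain shared by Fc receptors, had -3.28 and -3.53 at 300 ng/ml and -1.05 and -1.12 in Pax5sz2.

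Ly6d, a surface marker of lymphoid precursors, lay in the corner and differed by -3.04 in the Cy3 orientation. Its ratios there were -1.18 at 300 ng/ml and 1.86 in Pax5sz2. Jchain, the joining chain of secreted antibodies, had -1.18 and -1.52 at 300 ng/ml and 1.68 and 1.12 in Pax5sz2. Both crossed untreated clone 4, as Ccr2 did. The exception in the list was Ccl4, a chemokine, higher by 1.06 ± 0.0242. It passed by little and was under 2-fold in at least 1 orientation on treated channels alone and with median centring.

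Transcripts of other lineages were mostly lower in the transgene-bearing cells at 300 ng/ml where they differed. Among 11 NK cell and cytotoxic genes tested, 6 were lower and none higher, and the median difference was -1.19. The shares over all features tested were 2.62% lower and 1.64% higher. A gene dim in 1 RNA was tested only through the other RNA. With no filter on dim probes the NK median was -0.51 over 15 genes, with the same counts. Klrd1, an inhibitory receptor chain of NK cells, had -0.05 and 0.05 at 300 ng/ml, where it was not well above background, and 4.33 and 4.83 in Pax5sz2. It was at least 38.1-fold lower at 300 ng/ml. Nkg7, a granule protein, had -2.77 and -2.15 at 300 ng/ml and 1.62 and 1.66 in Pax5sz2. Gzma, a granule protease, differed by -1.57 ± 0.137, Ctsw, a protease of cytotoxic cells, by -1.22 ± 0.0316, and Il2rb, a receptor chain for interleukin signals, by -1.19 ± 0.146. The remaining lower member was Il18r1, which is also counted above among the genes repressed by Pax5. Of the 3 NK markers checked above, Ncr1 and Prf1 were not above background in either line, while Klrb1c was.

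Of 18 T lineage and Notch genes 5 were lower and none higher, with a median of -0.22. It was -0.11 over 22 genes with no filter on dim probes. Cd7 had -2.17 and -1.54 at 300 ng/ml and 1.12 and 1.32 in Pax5sz2, on opposite sides of untreated clone 4. Thy1 was above untreated clone 4 in Pax5sz2 only, with -0.24 and -0.15 at 300 ng/ml against 1.60 and 1.76 in Pax5sz2, and its other probe differed. Zap70 and Cd247, the kinase and the zeta chain of T cell receptor signalling, were low at 300 ng/ml, with differences of -1.54 ± 0.0718 and -1.47 ± 0.375. The other Cd247 probe differed. Hes1, a target of Notch, differed by -1.12 ± 0.125.

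The myeloid and granulocyte list had 20 members tested, of which 2 passed as lower and 1 as higher, with a median of -0.35. It was -0.1 over 28 genes with no filter on dim probes. Tyrobp, the adaptor of activating receptors, was low at 300 ng/ml, with -3.38 and -3.39, and not in Pax5sz2, with 0.03 and 0.17. Ctsg, the granule protease cathepsin G, was below untreated clone 4 in both RNAs, with -3.06 and -2.89 at 300 ng/ml and -1.87 and -1.5 in Pax5sz2. Fcgr3, a low-affinity IgG receptor, was also below it in both, but less so at 300 ng/ml, with -2.57 and -2.83, than in Pax5sz2, with -3.98 and -4.19. It is therefore the higher member of the list although it was low in both. Of 9 mast cell genes Cpa3, a mast cell protease, was lower, with a difference of -1.85 ± 0.226, and of 8 erythroid and megakaryocyte genes Gp9, a platelet glycoprotein, with -1.38 ± 0.121.

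Of 11 dendritic cell genes 4 were lower and 1 higher. Itgax, the integrin chain CD11c, Siglech, a receptor of plasmacytoid cells, and Cd86, a costimulatory ligand, were not well above background at 300 ng/ml and were at least 2.96-fold, 2.12-fold and 2.34-fold lower. The other Itgax probe differed. Id2, an inhibitor of E proteins, lies in the corner and differed by -1.24 in the Cy3 orientation, and its other probe differed. Irf8, a transcription factor of both B and dendritic cells, was higher by 1.18 ± 0.161. Irf8 missed the size under 4 of the alternatives. With the corner left out 3 members were lower, on treated channels alone 2 were lower and none higher, and with the median over a gene's probes 1 was lower and none higher. None of 14 stem and progenitor genes passed the size, and their largest difference was that of Procr at 1.03 ± 0.339, which reached 2-fold in 1 orientation.

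**Figure D5:**
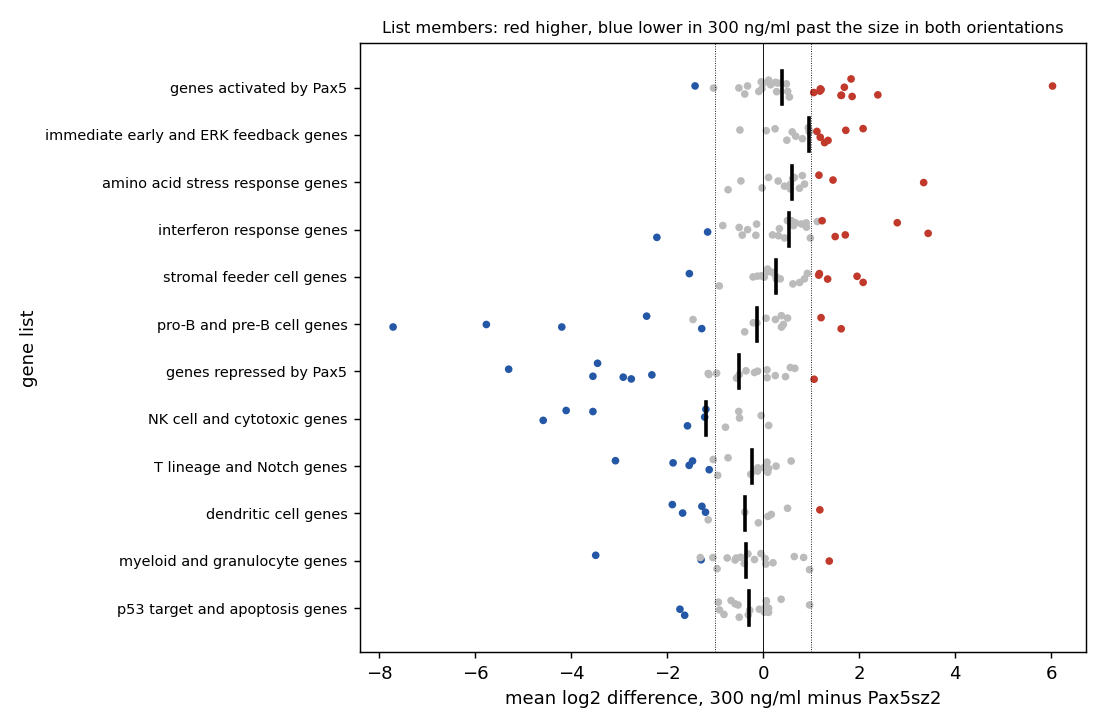
Mean log2 difference, 300 ng/ml minus Pax5sz2, of each tested member of 12 gene lists, with the list median as a black bar and 2-fold as dotted lines. Red points are past the size in both orientations and higher, blue lower. The medians of the activated, early-response, stress and interferon lists lie right of 0, and those of the repressed and NK lists left of it. Each of these lists has members on both sides.

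Immediate early and ERK feedback genes, which respond within minutes to growth factor signals, were higher in 6 of 18 members and lower in none. Their median difference was 0.95 and was above 0 under every normalization tried. It was the highest of the 27 lists, which were chosen with earlier results of these data known. Dusp6, a phosphatase that acts on ERK, had 1.55 and 1.80 at 300 ng/ml and -0.39 and -0.42 in Pax5sz2. Dusp1, a related phosphatase, had 1.15 and 0.77 at 300 ng/ml and -0.77 and -0.76 in Pax5sz2. Jun, a subunit of AP-1, was above untreated clone 4 in both, with 2.53 and 2.20 at 300 ng/ml and 1.02 and 1.15 in Pax5sz2. Egr2 was higher by 1.35 ± 0.106, Fosb by 1.19 ± 0.14 and Spry2, an inhibitor of receptor kinase signalling, by 1.12 ± 0.0512. The other Spry2 probe differed. With median centring 3 members were higher, and Jun, Fosb and Spry2 were not past the size.

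Amino acid stress response genes were higher in 3 of 17 members and lower in none, with a median of 0.59. Atf3, a transcription factor of the stress response, had 2.52 and 2.05 at 300 ng/ml and -0.92 and -1.20 in Pax5sz2. Mthfd2, a mitochondrial folate enzyme, had 1.62 and 1.38 at 300 ng/ml and 0.09 and 0.00 in Pax5sz2, and Cth, which makes cysteine, differed by 1.16 ± 0.0113. The last pair differed through the induced cells only.

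Interferon response genes were higher in 5 of 26 members and lower in 2, with a median difference of 0.55. Over the whole list both treated RNAs were above untreated clone 4, with median ratios of 1.16 at 300 ng/ml and 0.73 in Pax5sz2, but of the 5 higher members only Ifit3 was above untreated clone 4 in Pax5sz2. Cxcl10, a chemokine, had 2.60 and 2.49 at 300 ng/ml and -0.38 and -0.13 in Pax5sz2. Ifi44l had 2.89 and 2.79 at 300 ng/ml and -0.69 and -0.52 in Pax5sz2, where it was not well above background, and was at least 13-fold higher at 300 ng/ml. Rsad2, an antiviral enzyme, was higher by 1.71 ± 0.25. Ifit3, an antiviral RNA-binding protein, had 2.46 and 2.19 at 300 ng/ml and 1.02 and 1.17 in Pax5sz2. Isg15, a ubiquitin-like protein, was above untreated clone 4 in both, with 2.56 and 2.30 at 300 ng/ml and 1.23 and 1.37 in Pax5sz2, and missed the size in 1 orientation. The lower members were Oas2, at -1.16 ± 0.0453, and Oasl1, which lies in the corner and had -1.33 in the Cy3 orientation. Ifi44 differed by 1.5 ± 0.216 at its brighter probe and by -1.37 ± 0.859 at the other. None of 11 MHC class I and antigen processing genes passed the size, and their largest difference was that of the peptide transporter Tap1, at 0.84 ± 0.222.

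Genes of the stromal feeder were higher in 5 of 22 members and lower in 1, with a median of 0.28. Ccl2, a chemokine, had 1.67 and 1.35 at 300 ng/ml and -0.23 and -0.67 in Pax5sz2. Timp3, Fn1 and Col3a1, of the extracellular matrix, were higher by 1.34 ± 0.241, 1.17 ± 0.0436 and 1.16 ± 0.101. With median centring 2 members were higher, and these 3 were not past the size. Col3a1 also missed it on treated channels alone and Fn1 and Col3a1 with the median over probes. Col5a2 went the other way, with 1.34 and 1.08 at 300 ng/ml and 2.76 and 2.73 in Pax5sz2. The summed level of 8 feeder markers was 15.49 and 15.81 log2 units at 300 ng/ml, 15.37 and 15.43 in Pax5sz2 and 13.86 to 14.57 in untreated clone 4, and 7, 8 and 7 of them were above background on all arrays of that RNA. Col1a2 misses the count because it was left out as an outlier on 1 of the 300 ng/ml arrays. Both channels of that array were thus summed over 7 markers and are not fully comparable with the others. The part of the feeder in the other differences was not tested.

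Adhesion and homing genes had 1 higher and 2 lower of 16. Cd44, the hyaluronan receptor, had -0.55 and -0.34 at 300 ng/ml and was low in Pax5sz2, with -2.69 and -2.60, and 1 of its 2 other probes differed. Ccr9, a gut homing receptor, had -0.23 and -0.31 at 300 ng/ml and was high in Pax5sz2, with 1.51 and 1.73. Itgb7 was the other lower member. Of 17 cytokine receptor genes only Il7r passed the size. None did with the median over a gene's probes, where Il7r differed by -0.69, and with the corner left out Il7r has no value in the Cy5 orientation.

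Few growth and metabolism genes passed the size, set beside 1.64% higher and 2.62% lower over all features tested. Of 21 DNA replication genes Gins2, of the replicative helicase, was higher by 1.17 ± 0.0428, of 21 mitosis genes Kifc1, a kinesin, by 1.68 ± 0.948, and of 13 cell cycle control genes the D cyclin Ccnd3 by 1.30 ± 0.121. None of these 3 passed the size on treated channels alone. Of 16 glycolysis genes Pfkp, a phosphofructokinase, differed by 1.61 ± 0.414, missing the size with median centring, and Aldoc, an aldolase, by -1.59 ± 0.551. Of 20 p53 target and apoptosis genes Bmf and Pmaip1, both BH3-only activators of cell death, were lower, with differences of -1.73 ± 0.108 and -1.63 ± 0.325. The other Bmf probe differed, and Pmaip1 missed the size on the scanner's processed signals. Of 14 endoplasmic reticulum chaperones Hsp90b1 differed by -1.20 ± 0.166, which its other probe did not share and which missed the size on treated channels alone, and of 17 sterol synthesis genes none passed. Cyp51, of that list, had -0.58 in the Cy3 orientation, its probe being in the corner.

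Outside these lists the lowest named features were Nrgn, Stag3, Casp1, Trbv14, Ms4a6b, Drc1 and Dkkl1, besides those already given. Nrgn, a calmodulin-binding protein best known from neurons, differed by -4.07 in the Cy3 orientation, its probe lying in the corner. Stag3, a meiotic cohesin subunit, was not well above background at 300 ng/ml and was at least 37.9-fold lower than in Pax5sz2. Casp1, the inflammasome protease, had -0.19 and -0.17 at 300 ng/ml and 4.04 and 4.27 in Pax5sz2. Ms4a6b, a membrane protein of the Ms4a family, had 0.55 and 0.71 at 300 ng/ml and 4.70 and 5.15 in Pax5sz2. Drc1, of ciliary dynein regulation, and Dkkl1, a secreted protein of the testis, were high in Pax5sz2 in the same way, with differences of -4.05 ± 0.0959 and -4.05 ± 0.27. These genes, Nrgn and Trbv14 apart, were carried by a high ratio in Pax5sz2 and not by a low one at 300 ng/ml. Trbv14, a T cell receptor beta variable segment, had -1.78 and -1.40 at 300 ng/ml and 2.70 and 2.77 in Pax5sz2, and 2 of its 4 other probes differed.

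The highest named features besides those given were Ifi202b, Prdm16, Ttll11, Olfr433, Pigt, Ptprz1, Lars2, Tcstv3, Rragd, Bfsp2 and Grn. Ifi202b, a cytosolic DNA-binding protein of the interferon-inducible Ifi200 family, had 0.71 and 0.83 at 300 ng/ml and -4.50 and -3.87 in Pax5sz2. It was not well above background in Pax5sz2, and was at least 29.6-fold higher at 300 ng/ml. The probe of Olfr433, an odorant receptor gene, lies 79.0 kb from it on chromosome 1 in the array's annotation (mm8), and had -0.15 and 0.12 at 300 ng/ml and -3.05 and -3.00 in Pax5sz2. Prdm16, a transcriptional regulator of stem cells and brown fat, had -0.15 and 0.24 at 300 ng/ml and -4.18 and -4.01 in Pax5sz2. Tcstv3, Rragd and Pigt were likewise low in Pax5sz2 and near untreated clone 4 at 300 ng/ml, with differences of 2.68 ± 0.121, 2.65 ± 0.144 and 3.00 ± 0.00532. The other Pigt probe differed.

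A smaller set differed through the induced cells. Lars2, the mitochondrial leucyl-tRNA synthetase, had 2.40 and 2.15 at 300 ng/ml and -0.30 and -0.73 in Pax5sz2. Bfsp2, a beaded filament protein, had 2.29 and 1.70 at 300 ng/ml and -0.56 and -0.68 in Pax5sz2, and 1 of its 2 other probes differed. Grn, a secreted growth factor precursor, was higher by 2.52 ± 0.312, and its other probe differed. Ttll11, a tubulin-modifying enzyme, had 2.10 and 1.74 at 300 ng/ml and -1.32 and -1.42 in Pax5sz2, on opposite sides of untreated clone 4. Ptprz1, a receptor phosphatase, did the same, with 2.07 and 1.5 at 300 ng/ml and -1.01 and -1.11 in Pax5sz2, and its other probe differed. Its treated channels differed by 1.79 and its untreated channels by -1.06. With the median over probes it missed the size, at 1.02.

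The lower dose gives a second reading of the transgene-bearing line, from arrays without the corner, but against the same Pax5sz2 arrays, so the 2 contrasts are not independent. At 10 ng/ml minus Pax5sz2, 321 of 19628 features tested were higher (1.64%) and 419 lower (2.13%). Some genes carried by Pax5sz2 had like values at both doses: Vpreb1 differed by -7.70 ± 0.839 at 10 ng/ml and -7.71 ± 0.975 at 300 ng/ml, and Prdm16 by 4.21 ± 0.141 and 4.14 ± 0.158. Others did not, such as Rragd, with 0.95 at 10 ng/ml and 2.65 at 300 ng/ml, and Fcgr3, with 3.14 and 1.38. Genes carried by the induced cells also varied. Lars2 differed by 2.73 at 10 ng/ml and 2.79 at 300 ng/ml and Dusp6 by 1.88 and 2.08, while Bcar3 differed by 0.14 at 10 ng/ml and 1.63 at 300 ng/ml, and Cplx2 by -1.65 and 1.83. On the lower side Il18r1 differed by -1.76 at 10 ng/ml and -3.54 at 300 ng/ml, and Itgb7 by -0.77 and -2.91. Ctsg and Fcer1g were above Pax5sz2 at 10 ng/ml, by 1.72 and 0.51, and below it at 300 ng/ml, by -1.29 and -2.32. Blnk was higher by 2.51 at 10 ng/ml and by 6.03 at 300 ng/ml. The early-response list had 8 members higher at 10 ng/ml and 6 at 300 ng/ml, with medians of 1.04 and 0.95. Of the genes activated by Pax5, 2 were higher and 1 lower at 10 ng/ml, against 11 and 1 at 300 ng/ml. Their medians were 0.05 and 0.40. Of those repressed by Pax5, 1 was higher and 4 lower at 10 ng/ml, against 1 and 6, with medians of -0.01 and -0.50. The NK list had 4 lower at 10 ng/ml and 6 at 300 ng/ml, with medians of -0.56 and -1.19. The differences between doses were not tested.

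The Y-linked genes Ddx3y, Kdm5d, Uty and Eif2s3y were well above background in both lines, and none differed past the size. Ddx3y differed by 0.00 ± 0.124, Kdm5d by -0.74 ± 0.145 and Uty by -0.40 ± 0.175. Eif2s3y, in the corner, differed by -0.14 in the Cy3 orientation. Xist, the transcript of the inactive X chromosome, and its antisense Tsix were above background on both arrays of neither RNA. Over 20 chromosomes, Y apart, the median difference lay between -0.062 and 0.026, and the share of features past the size between 3.24%, on chromosome 2, and 6.61%, on chromosome 16. The Y chromosome had 6 features tested, with a median of -0.23 and none past the size.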

How the data were processed

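Agilent dual-colour mouse arrays of 43790 spots were read from the deposited scanner files. Per the file headers, these hold mean spot and median background intensity per channel, processed intensity, and a log10 ratio of Cy5 over Cy3, made by Feature Extraction 10.5.1.1, with spots called well above background at a multiplier of 13. That software is also the tool in the submitters' processing notes, which give no version. The deposited log10 values of the series matrix equalled the scanner ratio, turned where the named RNA was in Cy3, to within 5e-06. The 1000 ng/ml pair, scanned under an older protocol, was not used here.

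From the intensities, R 4.3.3 with limma 3.58.1 computed normexp background correction (offset 50) and loess within each array. Outlier spots (37 to 295 per array) were left out, spots of each of 41174 probes averaged, and ratios turned to named RNA over untreated clone 4. Names came from RefSeq for 33026 probes and from the files for 8148. The single channels were scaled between arrays with Aquantile. Arrays are 2 technical readings of 1 RNA, and their number limits the precision. Python 3.11.15 with matplotlib 3.10.9 drew the figures. Promoters came from RefSeq, GRCm38.p6.

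Members and gene lists (27) were chosen with earlier results of these data known. Named were Pax5, the 15 highest and 15 lowest named features, up to 5 members per list past the size or else the largest, and all sex-linked list members. Features known only by accession, clone or locus (150 past the size) were counted. Dntt, Rag1 and Isg15, and in the closing section Igf2, H19, Havcr2, S100a4, Rasgrp3, Klf6, Klf2, Nr4a1, Cxcl1, Ccl7 and Mylk, were named after their values were seen. The corner of the 300 ng/ml Cy5 array was found from block medians (20 by 20 blocks) of the ratio in the Cy5 minus the Cy3 orientation, at -0.5 or lower. A few list members enter the counts but are not reported here singly.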

Additional observations from a re-analysis of the deposited data

Results flagged for a closer look

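For 13 named genes the 2 treated RNAs moved to opposite sides of untreated clone 4, at least 2-fold on every array. Over all tested features this held for 26, of which 5 were higher at 300 ng/ml and lower in Pax5sz2, and 21 the reverse. The difference between the RNAs was not tested, since each is 1 sample. Higher at 300 ng/ml and lower in Pax5sz2 were Blnk, with a log2 difference of 6.03, Ttll11, with 3.29, and Ptprz1, with 2.85. Lower at 300 ng/ml and higher in Pax5sz2 were the chemokine receptor Ccr2, with -5.30, Nrgn, with -4.83, Pdia5, with -4.36, Dlk1, with -4.33, and Trbv14, with -4.33. The same held for Nkg7, with -4.10, Rasgrp3, a Ras activator of lymphocytes, with -3.71, Ly6d, with -3.45, Cd7, with -3.07, and Jchain, with -2.75. The probes of Nrgn, Pdia5 and Ly6d lie in the uneven corner of the 300 ng/ml Cy5 array, where the other orientation gave -4.07, -4.07 and -3.04. The difference of Pdia5 lay mostly in its untreated channels, which differed by 3.08, while its treated channels differed by -1.27 and did not pass the size. The untreated channels also differed for Ptprz1, by -1.06 beside 1.79 in the treated channels, and for Dlk1, by 1.13 beside -3.20. Ptprz1 missed the size with the median over probes, at 1.02.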

How the results depend on the processing

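The counts of features higher and lower at 300 ng/ml than in Pax5sz2 were 307 and 489. They were 147 and 804 with median centring, 687 and 1002 with the scanner's processed signals and 686 and 1007 with the deposited matrix ratios. Neither of the last 2 went through the loess step applied here, and the scanner software's own correction was not examined. The counts were 32 and 90 when a log2 difference of at least 2 was asked for, as that stricter size implies. Leaving out a dye orientation gave 431 to 506 higher and 657 to 1699 lower. The largest of these counts comes from the Cy5 orientation alone, which holds the uneven corner of its 300 ng/ml array. Without the corner, an alternative chosen after seeing the data, they were 291 and 441. The counts moved by less than 1.5 times without the filter on dim probes, with untreated clone 4 also detected, on treated channels only, with arrays crossed between orientations and with the median over a gene's probes.

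For 10 ng/ml minus Pax5sz2 the counts, 321 and 419, became 204 higher with median centring, 679 and 882 with processed signals, 679 and 884 with matrix ratios, and 27 and 69 at the stricter size. The causes were not tested. Leaving out a dye orientation gave 363 to 443 higher and 520 to 543 lower. The count of features whose untreated clone 4 signal differed between the pairs, 170, was 262 to 409 with a single orientation.

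Of 106 named genes past the size, none changed direction under any of the alternatives, and 71 kept the call under all those planned except the stricter size. Median centring ended 19 calls, the median over probes 17, treated channels only 12, crossed arrays 8, and processed signals and matrix ratios 2 each. No paired analysis was possible because the labels give no replicate numbers, and differences were already taken within a dye orientation. Dim probes limit ratios to bounds, and 1 RNA per line allows no statement on variation between cultures.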

Other observations

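Several genes outside the lists also differed, and they are given as values. Igf2, a fetal growth factor, and H19, a noncoding RNA 74.9 kb from it on chromosome 7 in the array's annotation, are imprinted neighbours. Igf2 had log2 ratios of 0.16 and 0.03 at 300 ng/ml and 2.74 and 2.55 in Pax5sz2. H19 lies in the corner at its brightest probe, where the Cy3 orientation gave 0.42 at 300 ng/ml and 1.89 in Pax5sz2, and its other probe had 0.14 and 0.45 at 300 ng/ml and 2.13 and 2.18 in Pax5sz2. Both were thus high in Pax5sz2 and close to untreated clone 4 at 300 ng/ml. Havcr2, an inhibitory receptor, differed by -2.93 ± 0.102 (SD, n = 2 dye orientations). S100a4, a calcium-binding protein, lies in the corner and differed by -1.93 in the Cy3 orientation.

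On the higher side, Klf6 and Klf2, transcription factors of the Kruppel-like family, differed by 2.04 ± 0.443 and 1.61 ± 0.198, and Nr4a1, an orphan receptor induced by antigen receptor signals, by 1.84 ± 0.00566. The probe of Klf6 lies in the corner, and the Cy3 orientation gave 2.35. Of the chemokines, Cxcl1 differed by 2.29 ± 0.245, and Ccl7, whose probe lies 9.9 kb from that of Ccl2 on chromosome 11, by 1.97 ± 0.231. Mylk, the myosin light chain kinase, had -0.61 and -0.79 at 300 ng/ml and -2.78 and -2.88 in Pax5sz2.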
